A study of Arabidopsis thaliana with 24 samples.

Results

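The transcripts described here encode the core of gibberellin perception in Arabidopsis thaliana: the 5 DELLA proteins GAI (AT1G14920), RGA (AT2G01570), RGL1 (AT1G66350), RGL2 (AT3G03450) and RGL3 (AT5G17490), the 3 receptors GID1A (AT3G05120), GID1B (AT3G63010) and GID1C (AT5G27320), and the F-box protein SLY1 (AT4G24210). They were chosen by locus code, and all 9 were present among the 20777 loci of the expression table. Wild-type Col-0 plants were grown in vitro under a long-day cycle, either on medium with 25 mM mannitol, an osmotically active sugar alcohol that makes water harder to take up and so imposes a mild stress, or on control medium with 0 mM. The vegetative part of seedlings was collected at growth stage 1.03, and leaf 3 was harvested on 3 days: proliferating at 9 days after sowing (leaf area 0.1 mm2), expanding at 15 days (7 mm2) and mature at 22 days (40 mm2). RNA of each of the 8 groups of stage and treatment was hybridised to 3 ATH1 arrays. The replicates come from independent experiments, per the study's design text, and each is a pool of many plants. Seedlings carry no day in the labels and so have no place in the leaf series.

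Gibberellin is a growth hormone that acts by removing repressors. A GID1 receptor that has bound gibberellin binds a DELLA protein, and the complex is recognised by the F-box protein SLY1, through which an SCF ubiquitin ligase marks the DELLA protein for destruction. DELLA proteins restrain growth by binding other transcription factors, and they promote the transcription of several genes that raise gibberellin synthesis and perception, so the pathway carries a feedback loop. In young leaves gibberellin and DELLA proteins are known to set when cells leave division and how far they expand. Arrays measure transcripts, and much of the control of DELLA proteins acts on the protein, which was not measured here.

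All values are log2 expression levels made by the authors with RMA, 1 per locus and array, so a difference of 1 is a factor of 2. A gene was said to rise, fall or change where limma's moderated test, fitted to all 24 arrays and adjusted by Benjamini and Hochberg over all 20777 loci, gave an adjusted p under 0.05. Levels of different genes are not compared, because the brightness of a probe depends on its sequence. A locus was called dim where it lay below 5.11, the 40th percentile of all values in the table. Which probes make up a locus is not stated in these sources, so signal shared between close relatives such as GAI and RGA, or GID1A and GID1C, could not be separated.

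Array medians ran from 5.91 to 6.16 and arrays of the same group correlated at 0.990 to 0.997. Marker genes followed the leaf stages: the median of 6 genes of dividing cells was 9.94 in proliferating, 5.91 in expanding and 4.81 in mature control leaves. The shoot meristem genes WUS, CLV3 and KNAT1 were dim in every group and STM lay between 4.49 and 5.15. The root hair genes were dim throughout, as were 7 seed storage genes (group means up to 4.52). None of the 4 photosynthesis markers listed was in the table (0 of 4).

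Of the 9 transcripts, GAI, RGA, RGL2, GID1A and SLY1 were above the dim level on all 24 arrays. RGL1 was below it on 2 arrays, both of mature leaf, GID1C on 10 and GID1B on 13. RGL3, a DELLA gene known for its role in jasmonate and stress responses, was dim on all 24 arrays (3.69 to 4.84), and 8 of them also lay below 4.04, the 25th percentile. Small differences of RGL3 are therefore differences between dim readings. Those of GID1B outside the proliferating leaf, of GID1C in proliferating and expanding leaf, and of RGL1 in mature leaf involve readings below or around the dim level.

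**Figure D1:**
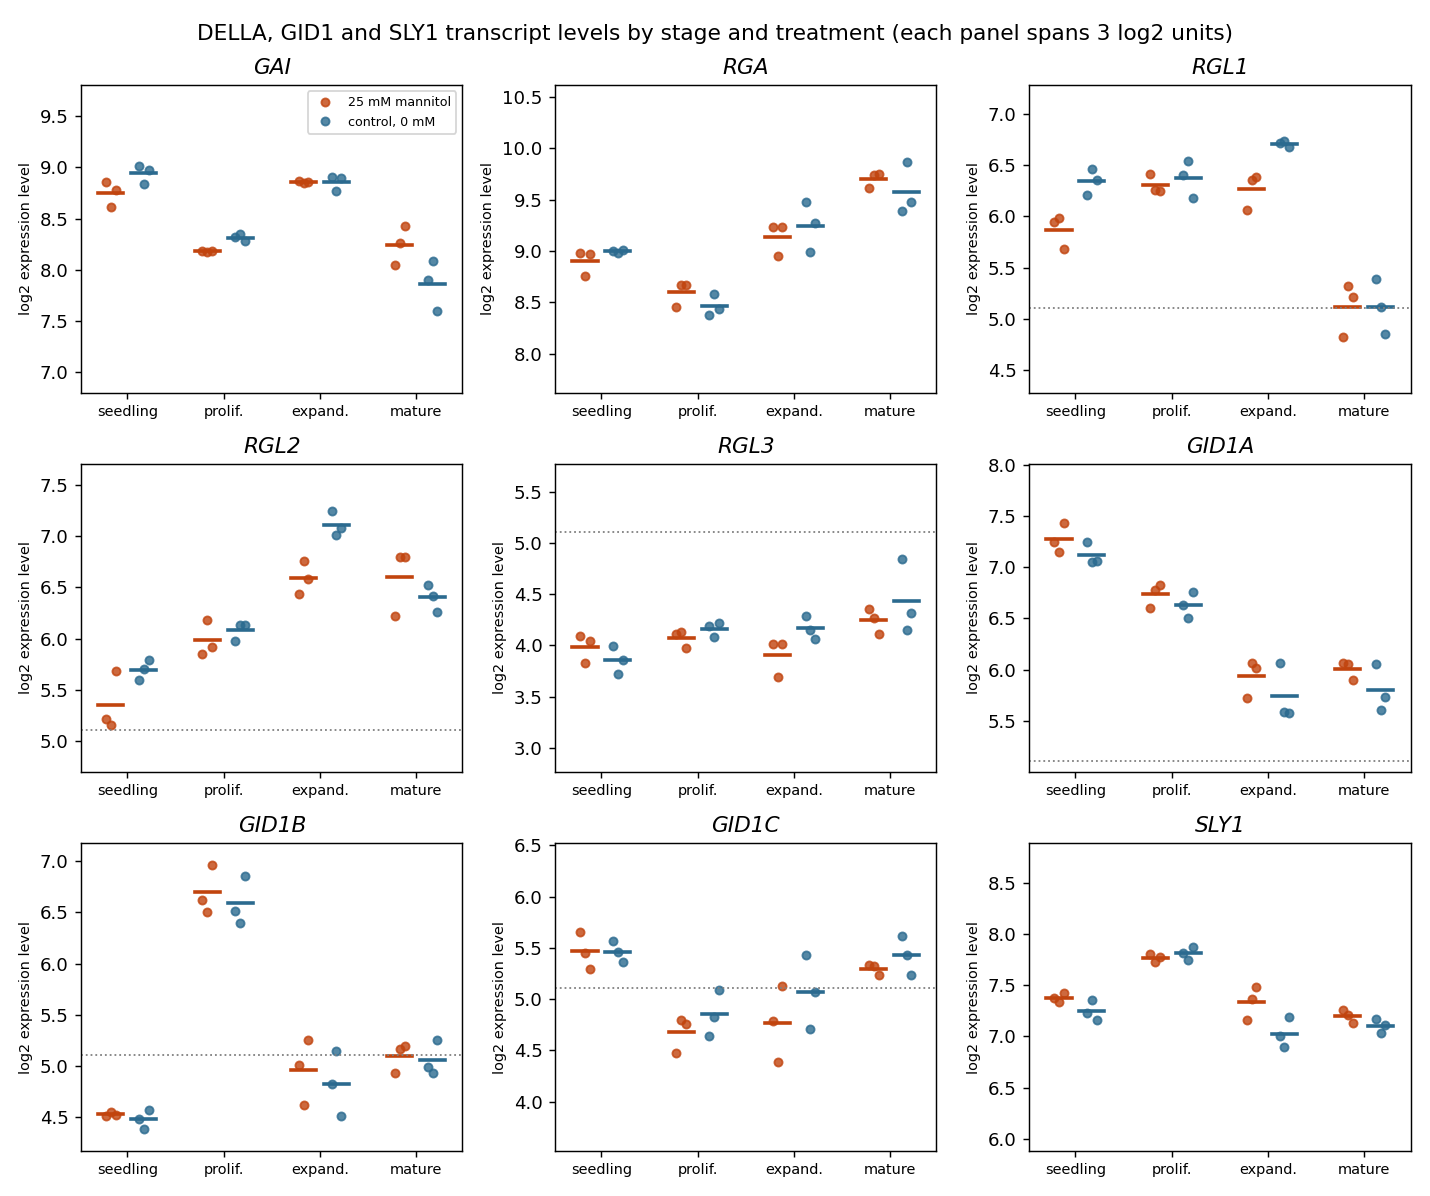
Log2 expression level of the 9 transcripts by stage (horizontal axis), with each array as a point, the mean of the 3 arrays as a bar, mannitol in orange on the left and control in blue on the right of each stage; every panel spans 3 log2 units and the dotted line marks the dim level of 5.11. GID1B stands highest in proliferating leaf, RGL1 is lowest in mature leaf, and the mannitol and control points overlap in most pairs.

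The range of the 8 group means was widest for GID1B, from 4.48 to 6.70, a factor of 4.64. It was 1.76 log2 units for RGL2, 1.59 for RGL1, 1.53 for GID1A, 1.24 for RGA and 1.08 for GAI. GID1C (0.79), SLY1 (0.78) and RGL3 (0.58) varied less than the median locus of the table, whose group means spanned 0.86. Within groups the SD of the 9 transcripts averaged between 0.0859 for SLY1 and 0.208 for GID1C.

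The first comparison concerns the leaf as it grows. From proliferating to expanding control leaf the receptors GID1A and GID1B and the F-box gene SLY1 fell, while the DELLA genes GAI, RGA, RGL1 and RGL2 rose, and RGL3 and GID1C did not pass the test. Thus 7 of 9 transcripts changed, 4 up and 3 down, where 60.6% of all loci did, so the number of changes is near that of the table as a whole. In the same step under mannitol 6 of 9 changed, against 65.0% of all loci, in the same directions, with RGL1 no longer among them. Centring each array on its median would move the median change of all loci up by 0.10 in control and 0.13 in mannitol leaves, less than any called change of this step, and no call of the 9 depended on it.

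GID1B fell most. Its levels were 4.82, 5.15 and 4.52 in expanding control leaves, against 6.51, 6.39 and 6.86 in proliferating control leaves. All 3 expanding values lay more than a log2 unit below the lowest proliferating one, and the change was -1.76 ± 0.162 (SE, adjusted p = 1.7e-09). Under mannitol the levels were 5.01, 4.62 and 5.26 in expanding and 6.62, 6.51 and 6.96 in proliferating leaves, a change of -1.73 (adjusted p = 2.31e-09). The expanding readings lie around the dim level of 5.11. GID1A, a receptor known for its part in stem growth, read 6.06, 5.59 and 5.58 in expanding control leaves, against 6.63, 6.51 and 6.76 in proliferating ones. The groups did not overlap, and the fall was by 0.89 on the log2 scale in control leaves and by 0.80 in mannitol leaves (adjusted p = 3.21e-06 and 1.29e-05). GID1C, the third receptor, averaged 5.07 ± 0.360 in expanding and 4.85 ± 0.223 in proliferating control leaves (SD, n = 3), and its change of 0.22 (95% confidence interval -0.14 to 0.57) did not pass.

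SLY1, which brings DELLA proteins to the ubiquitin ligase, read 7.00, 6.90 and 7.19 in expanding control leaves, against 7.82, 7.75 and 7.87 in proliferating control leaves. The groups stood well apart, with a change of -0.78 ± 0.0890 (SE, adjusted p = 5.1e-08). Under mannitol it was 7.16, 7.37 and 7.48 in expanding leaves, against 7.81, 7.73 and 7.77 in proliferating leaves. The fall there was by 0.43 (adjusted p = 0.000178).

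Among the DELLA genes RGL2, best known as the repressor of seed germination, showed the largest rise at this step. It read 7.24, 7.01 and 7.08 in expanding control leaves, against 5.98, 6.13 and 6.13 in proliferating ones, a change of 1.03 ± 0.146 (SE, adjusted p = 1.63e-06). Under mannitol the rise was 0.61 (adjusted p = 0.000944). RGA, which with GAI carries most of the repression of vegetative growth, read 9.48, 8.99 and 9.27 in expanding control leaves, against 8.37, 8.58 and 8.44 in proliferating ones. The change was 0.78 in control and 0.54 in mannitol leaves (adjusted p = 7.92e-06 and 0.000615). GAI read 8.91, 8.77 and 8.89 in expanding control leaves, against 8.32, 8.35 and 8.28 in proliferating ones, and rose by 0.54 in control and 0.68 in mannitol leaves (adjusted p = 0.000101 and 5.97e-06). These groups did not overlap for GAI, RGA or RGL2 under either treatment. RGL1 rose by 0.33 in control leaves (adjusted p = 0.0411), a call that was lost when any 1 of 5 arrays was left out (proliferating control replicate 1 or 3, or any expanding control array; adjusted p 0.0608 to 0.196) and with a trended prior. Under mannitol its difference was -0.04 (95% confidence interval -0.33 to 0.25).

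**Figure D2:**
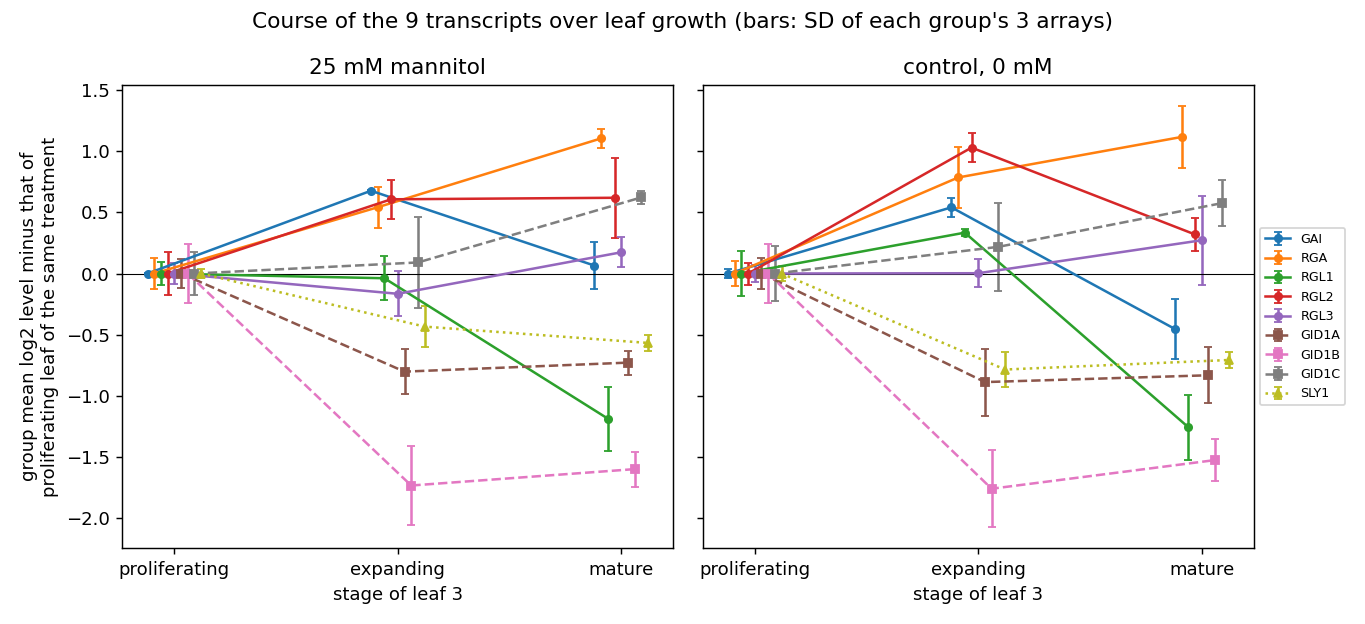
Group mean log2 level of each transcript minus its mean in proliferating leaf of the same treatment (vertical axis), at the 3 stages of leaf 3 (horizontal axis), under mannitol on the left and in control leaves on the right; DELLA genes are circles with solid lines, GID1 genes squares with dashed lines, SLY1 triangles with a dotted line, and bars are the SD of the 3 arrays. GID1A, GID1B and SLY1 drop before the expanding stage and differ little after it, RGA climbs at each step, and GAI and RGL1 drop between the expanding and mature stages.

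From expanding to mature leaf the DELLA genes parted. GAI, RGL1 and RGL2 fell and RGA rose in control leaves, where 4 of 9 transcripts changed, as did 40.4% of all loci. Under mannitol 5 of 9 changed, against 40.1% of all loci: GAI and RGL1 fell, while RGA, RGL3 and GID1C rose. None of GID1A, GID1B and SLY1 passed the test at this step under either treatment, with differences from -0.13 to 0.23.

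RGL1 read 5.39, 5.12 and 4.86 in mature control leaves, against 6.71, 6.74 and 6.68 in expanding ones. It fell by 1.59 ± 0.138 (SE, adjusted p = 2.99e-09), a change larger than that of 97.2% of all loci at this step, and by 1.15 under mannitol (adjusted p = 4.88e-07). GAI read 7.90, 8.08 and 7.60 in mature control leaves, against 8.91, 8.77 and 8.89 in expanding ones. The groups lay apart, and GAI fell by 0.99 ± 0.106 (SE, adjusted p = 6.85e-08). In mannitol leaves GAI read 8.05, 8.26 and 8.43 at the mature stage, against 8.87, 8.85 and 8.86 at the expanding stage, a fall by 0.61 (adjusted p = 5.25e-05).

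RGA moved the other way. It read 9.61, 9.74 and 9.75 in mature mannitol leaves, against 9.24, 8.95 and 9.23 in expanding mannitol leaves, a rise of 0.56 (adjusted p = 0.000813). In control leaves it read 9.39, 9.87 and 9.48 at the mature stage, against 9.48, 8.99 and 9.27 at the expanding stage. Here the groups touched, and the rise of 0.33 (adjusted p = 0.0381) was lost without expanding control replicate 2 or 3 or mature control replicate 2 (adjusted p 0.0652 to 0.264) and in the fit of these groups alone. RGL2 fell by 0.71 in control leaves, with 6.52, 6.42 and 6.26 at the mature stage against 7.24, 7.01 and 7.08 at the expanding stage (adjusted p = 0.000377). Under mannitol its difference was 0.01 (95% confidence interval -0.29 to 0.32).

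The remaining rises at this step were small. GID1C read 5.33, 5.33 and 5.24 in mature mannitol leaves, against 4.79, 4.38 and 5.13 in expanding ones, and rose by 0.53 (adjusted p = 0.0161). Of the expanding readings 2 of 3 were dim. Without expanding mannitol replicate 2 the adjusted p was 0.141. In control leaves its difference of 0.36 did not pass (adjusted p = 0.108), but did after centring or quantile normalization, and without expanding control replicate 1 (adjusted p = 0.0199). RGL3 rose by 0.34 under mannitol (adjusted p = 0.0489) between dim readings, a call that was lost without expanding mannitol replicate 2 or mature mannitol replicate 1 or 2 (adjusted p 0.106 to 0.239). In control leaves RGL3 differed by 0.27, which passed after centring and without mature control replicate 2 (adjusted p = 0.0208). The median of the dividing-cell markers was lower at each later stage of the leaf, as given above. Of the 3 ageing genes NAP read 9.65 in mature and 6.91 in expanding mannitol leaves, and 10.20 in mature and 6.38 in expanding control leaves. SEN1 read 7.69 in mature and 4.62 in expanding mannitol leaves, and 8.78 in mature and 4.31 in expanding control leaves. SAG12 was dim in all 4 of these groups (3.28 to 3.45). In samples of whole leaves fewer cells of a type and less RNA per cell cannot be told apart, and the part of either marker group in the stage changes of the DELLA and GID1 genes was not tested.

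Seedling shoots, a mixture of organs, were set against expanding leaves, both from control plants. GID1A was 2.59-fold higher in seedlings (7.24, 7.05 and 7.06, against 6.06, 5.59 and 5.58 in expanding leaves; log2 difference 1.37, adjusted p = 2.85e-08). RGL2 was 2.67-fold lower (5.59, 5.71 and 5.79, against 7.24, 7.01 and 7.08; log2 difference -1.41, adjusted p = 8.92e-08). Their sizes exceeded those of 97.5% of loci for GID1A and 97.7% for RGL2. With RGL1 (-0.37, adjusted p = 0.0448), 3 of 9 transcripts differed, against 32.8% of all loci. The RGL1 call was lost without seedling control replicate 1 or 3 or any expanding control array (adjusted p 0.0672 to 0.166) and with a trended prior (0.0559). RGL3 differed by -0.31 between dim readings (adjusted p = 0.0826), which passed after centring (0.0326). Further calls appeared when 1 array was left out: GID1C without expanding control replicate 1 (adjusted p = 0.0181), RGA without replicate 2 of that group (0.0275), and GID1B (0.0268) and SLY1 (0.0198) without its replicate 3. These same 3 expanding control arrays also enter both the stage comparisons and the mannitol comparison of expanding leaf, so the comparisons are not independent.

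The main question of the study is how each stage answers mannitol. For the DELLA, GID1 and SLY1 transcripts the differences were small: over the 4 stages they ran from -0.52 to 0.38 on the log2 scale, and no gene changed by more than a factor of 1.43. In seedlings 0 of 9 changed and in proliferating leaves 0 of 9, against 1.45% and 1.81% of all loci. In expanding leaves RGL2 fell and SLY1 rose, 2 of 9 against 7.65% of all loci, and in mature leaves GAI rose, 1 of 9 against 4.83%. No 95% confidence interval reached a change of 2-fold: over the 9 transcripts and 4 stages the lowest bound was -0.82 and the highest 0.60.

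**Figure D3:**
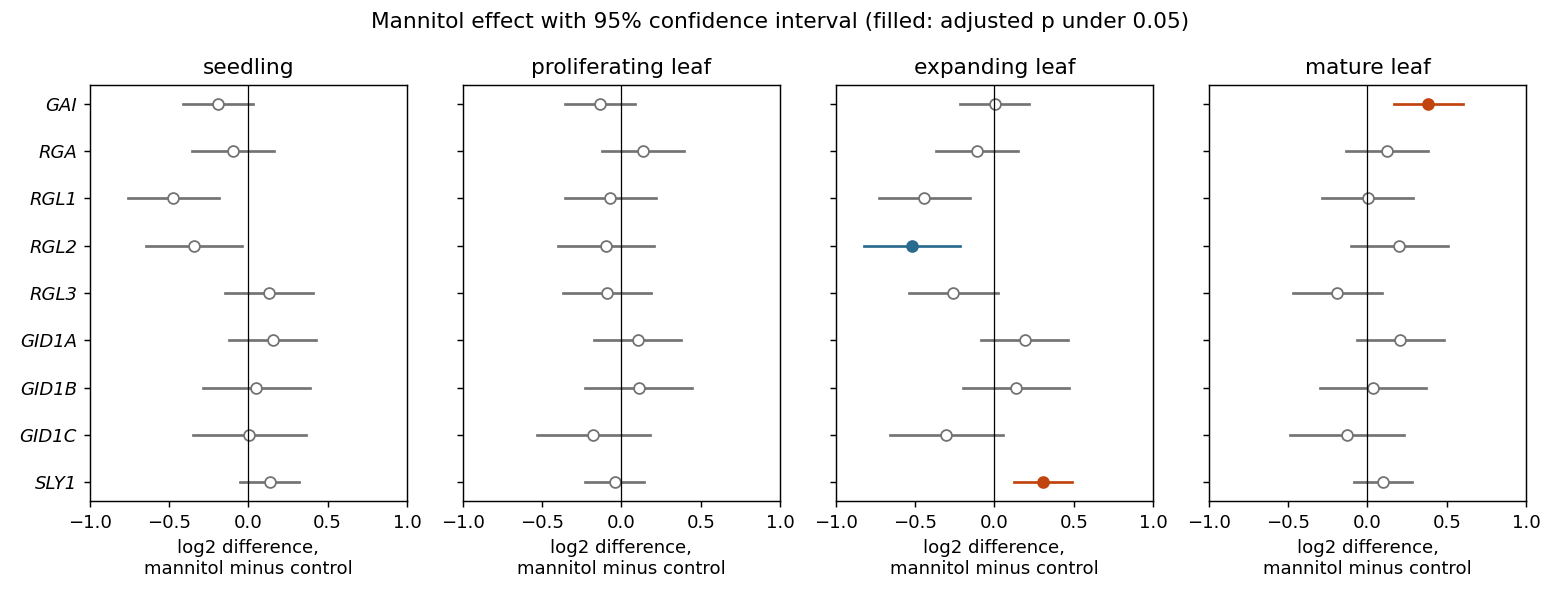
Log2 difference between mannitol and control (horizontal axis) of the 9 transcripts (rows) at the 4 stages (panels), with points for the estimate from 3 against 3 arrays, lines for its 95% confidence interval, and filled points where the adjusted p was under 0.05. RGL2 (down) and SLY1 (up) are filled in expanding leaf and GAI (up) in mature leaf; no interval reaches a difference of 1 in either direction.

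In proliferating leaf, the stage at which leaf cells divide, none of the 9 passed limma's test. An unadjusted p under 0.05 was found for 0 of 9, and for 2050 of the 20777 loci. GID1B read 6.62, 6.51 and 6.96 in mannitol leaves, against 6.51, 6.39 and 6.86 in control leaves. Both groups covered nearly the same range, but each mannitol array read above the control array of the same number. The difference of GID1B was 0.11 (95% confidence interval -0.23 to 0.44, from the fit without pairing). That interval includes the spread that same-numbered arrays share. SLY1 differed by -0.04 (-0.23 to 0.14) and RGA by 0.13 (-0.12 to 0.39). GAI was the only transcript whose groups did not overlap there, with 8.18, 8.18 and 8.19 in mannitol leaves against 8.32, 8.35 and 8.28 in control leaves. That difference of -0.13 had an adjusted p of 0.771, and groups that do not overlap were found for 17.1% of all loci in this comparison.

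In seedlings GAI, RGA, RGL1 and RGL2 read lower under mannitol, and RGL3 read higher between dim readings (3.99 against 3.86). None of these passed the test. RGL1 read 5.95, 5.98 and 5.68 in mannitol seedlings, against 6.21, 6.46 and 6.35 in controls. The groups did not overlap, as for 16.3% of all loci, but the difference of -0.47 (95% confidence interval -0.76 to -0.19) had an adjusted p of 0.119. RGL2 read 5.21, 5.16 and 5.69 in mannitol seedlings, against 5.59, 5.71 and 5.79 in controls (-0.34, adjusted p = 0.454). RGL1 and RGL2 were the only transcripts of the 9 with an unadjusted p under 0.05 in seedlings (2 of 9, against 1752 of the 20777 loci). RGA read 8.75 to 8.98 in mannitol seedlings, against 8.98 to 9.01 in controls; these groups did not overlap either, by a narrow margin (difference -0.10, adjusted p = 0.994). GAI differed by -0.19 (adjusted p = 0.715). The receptors differed by 0.15 (GID1A), 0.05 (GID1B) and 0.01 (GID1C), with adjusted p from 0.950 to 0.998.

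In expanding leaf RGL2 read 6.43, 6.76 and 6.58 under mannitol, against 7.24, 7.01 and 7.08 in controls. Every mannitol array lay below every control array, and RGL2 fell by 0.52 ± 0.146 (SE, adjusted p = 0.0289), a factor of 1.43. RGL1 read 6.06, 6.36 and 6.39 under mannitol, against 6.71, 6.74 and 6.68 in controls. Its groups did not overlap either, as for 20.0% of all loci, and the difference of -0.44 ± 0.138 had an adjusted p of 0.0532, and of 0.0452 with the replicate block, which makes 3 of 9. SLY1 read 7.16, 7.37 and 7.48 under mannitol, against 7.00, 6.90 and 7.19 in controls. The groups touched at their edges, and SLY1 rose by 0.31 ± 0.0890 (SE, adjusted p = 0.0342).

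Each of these calls rests on few arrays. That of RGL2 was lost when replicate 1 or 3 of either treatment was left out (adjusted p 0.0607 to 0.136). That of SLY1 was lost when control replicates 1 or 2, or mannitol replicates 2 or 3, were left out singly (0.0956 to 0.185) and in the fit of expanding leaf alone (0.284). The count of 2 transcripts thus became 0 on removal of the first control array or the third mannitol array, and 1 on removal of any other single array of expanding leaf. Beside these changes, the median of the 6 genes of dividing cells was 6.21 (4.29 to 7.85) in mannitol and 5.91 (4.49 to 7.56) in control expanding leaves, and its part in them was not tested. RGL3 differed by -0.26, GID1C by -0.30 and GID1A by 0.19, none of which passed, and GAI by 0.00 (95% confidence interval -0.22 to 0.22). The RGL3 groups did not overlap, by a narrow margin between dim readings (at most 4.01 under mannitol, at least 4.06 in controls). With RGL1 and RGL2 that makes 3 of 9, where 20.0% of all loci had groups that did not overlap.

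In mature leaf GAI read 8.05, 8.26 and 8.43 under mannitol, against 7.90, 8.08 and 7.60 in controls. It rose by 0.38 ± 0.106 (SE, adjusted p = 0.0365) although the lowest mannitol array lay below the highest control array. The call was lost after centring of the arrays (adjusted p = 0.0566), in the fit of mature leaf alone (0.198), and when control replicates 1 or 3, or mannitol replicates 2 or 3, were left out singly (0.0736 to 0.227). Each of these leaves a count of 0. RGL1 averaged 5.12 ± 0.261 in mannitol and 5.12 ± 0.265 in control leaves (SD, n = 3), a difference of 0.00 (95% confidence interval -0.29 to 0.29). RGL2 differed by 0.20 and RGA by 0.12, and the receptors by 0.21 (GID1A), 0.03 (GID1B) and -0.13 (GID1C); none passed. Of the 3 ageing genes SEN1 read 7.69 in mannitol and 8.78 in control mature leaves, NAP 9.65 and 10.20, and SAG12 was dim in both, and their part in the GAI result was not tested.

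Whether the answer to mannitol differs between leaf stages was tested directly. By limma's test 0 of 9 transcripts passed for expanding minus proliferating leaf, where 1.30% of all loci did. For mature minus expanding leaf it was 0 of 9 (3.41% of all loci) and for mature minus proliferating leaf 0 of 9 (2.64%). In that order 1, 3 and 1 of 9 had an unadjusted p under 0.05, where 2390, 3398 and 2737 of the 20777 loci did. The largest difference was that of RGL2, whose mannitol effect was higher by 0.72 in mature than in expanding leaf (95% confidence interval 0.29 to 1.15, adjusted p = 0.0563). It passed without expanding control replicate 2, expanding mannitol replicate 2 or mature mannitol replicate 1 (adjusted p 0.00974 to 0.0455), and with the replicate block (0.0479). GAI followed, with an effect higher by 0.52 in mature than in proliferating leaf (0.21 to 0.83, adjusted p = 0.0696), which passed without mature control replicate 2 or mature mannitol replicate 1 (0.0153 and 0.0280). For RGL1 the effect in mature minus expanding leaf was 0.44 (adjusted p = 0.255), and for SLY1 that in expanding minus proliferating leaf was 0.35 (adjusted p = 0.232). The fall of RGL2 in expanding leaf and the rise of GAI in mature leaf are thus not shown to be particular to those stages.

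The order of the 8 groups differed from gene to gene. GAI was lowest in mature control leaf, which overlapped mature mannitol leaf, while its 4 highest groups, from seedlings and expanding leaf, overlapped with their neighbours. RGL2 was highest in expanding control leaf, apart from every other group, and lowest in the seedlings. RGL1 was also highest in expanding control leaf and lowest in mature leaf, where mannitol and control could not be told apart. GID1B had proliferating leaf on top, the treatments overlapping, and all other groups below with neighbours that overlapped throughout. GID1A ran from seedlings through proliferating leaf to expanding and mature leaf, and its 4 lowest groups overlapped with their neighbours. RGA was highest in mature leaf and lowest in proliferating leaf, while SLY1 was highest in proliferating leaf. In GID1C and RGL3 every group overlapped its neighbour in the order.

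Other genes of the pathway were followed in lists, whose counts under mannitol stand against 1.45% of all loci called in seedlings, 1.81% in proliferating, 7.65% in expanding and 4.83% in mature leaf. The lists overlap, so their counts are not independent. GA20OX2 and GA3OX1 stand among both the synthesis genes and the direct DELLA targets, and SCL3 among both the partners and the targets. Of 14 gibberellin synthesis genes, all measured, 1 fell in seedlings and 0 changed in proliferating leaf under mannitol. In proliferating leaf 0 had an unadjusted p under 0.05 by limma, where 2050 of the 20777 loci did. In expanding leaf 1 rose and 1 fell under mannitol, and in mature leaf 2 rose. Of the 14 genes 7 were dim in every group. GA3 (AT5G25900), the ent-kaurene oxidase at an early step, rose by 0.66 in expanding leaf (7.67 ± 0.116 under mannitol, 7.01 ± 0.288 in controls; SD, n = 3; limma adjusted p = 0.00075) and by 0.69 in mature leaf (adjusted p = 0.00113). GA3OX1 (AT1G15550), which makes the bioactive hormone, rose by 0.91 in mature leaf (7.84 ± 0.329 under mannitol, 6.93 ± 0.0984 in controls; SD, n = 3; limma adjusted p = 0.00247). GA20OX1 (AT4G25420), which makes its precursor, fell by 0.70 in expanding leaf (adjusted p = 0.00173) and by 0.59 in seedlings (adjusted p = 0.0283). The seedling call of GA20OX1 was lost when control replicates 1 or 2, or mannitol replicates 2 or 3, were left out singly (adjusted p 0.131 to 0.186) and in the fit of seedlings alone (0.0563). The mannitol effect on GA3OX1 was higher by 1.17 in mature than in proliferating leaf (adjusted p = 0.00829) and that on GA3 by 0.77 (adjusted p = 0.0132). That on GA3 was also higher by 0.73 in expanding than in proliferating leaf (adjusted p = 0.0302), a call that was lost without any 1 of 6 arrays (adjusted p 0.0547 to 0.0883) and in the fit of the compared groups alone (0.138).

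Of 7 GA2OX genes, which inactivate gibberellin, 1 changed under mannitol: ATGA2OX1 (AT1G78440) fell by 0.57 in mature leaf (adjusted p = 0.0296), a call lost without mature control replicate 2 or 3 or mature mannitol replicate 1 or 3 (adjusted p 0.0633 to 0.162) and in the fit of mature leaf alone (0.125). Of the 7 genes 3 were dim in every group. GA2OX6 (AT1G02400) read 6.19 ± 0.240 under mannitol and 5.83 ± 0.147 in controls of proliferating leaf (SD, n = 3), a difference of 0.35 with a limma adjusted p of 0.132. Of 13 measured partners and modifiers of DELLA proteins and of the ligase, only BRG2 (AT1G79110), a RING protein of the BOI group, changed under mannitol at any stage, by 0.39 in expanding leaf (adjusted p = 0.0357). That call was lost without expanding control replicate 1 or any expanding mannitol array (adjusted p 0.0832 to 0.213), after centring (0.0556), with a trended prior (0.0580) and in the fit of expanding leaf alone (0.131). The mannitol effect on BRG2 was higher by 0.77 in expanding than in proliferating leaf (adjusted p = 0.0162), and without expanding control replicate 1 the adjusted p was 0.0507. SPY (AT3G11540), which modifies DELLA proteins with a sugar, differed by -0.12 to 0.04 over the 4 stages, and SLY2 (AT5G48170), the closest relative of SLY1, by -0.18 to 0.08.

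Of 9 measured transcription factors and regulators that DELLA proteins bind, 0 changed under mannitol in seedlings. There 0 had an unadjusted p under 0.05 by limma, where 1752 of the 20777 loci did. Of the 9, 1 rose in proliferating, 2 in expanding and 1 in mature leaf, and 1 was dim in every group. JAZ1 (AT1G19180), a repressor of jasmonate responses, rose by 1.25 in proliferating leaf (adjusted p = 0.00394, and 0.0746 in the fit of that stage alone, where the call is lost), by 1.60 in expanding leaf (5.79 ± 0.584 under mannitol, 4.19 ± 0.222 in controls; SD, n = 3; limma adjusted p = 9.39e-05) and by 0.85 in mature leaf (adjusted p = 0.0432). The mature call was lost whichever of the 6 mature arrays was left out (adjusted p 0.0563 to 0.142) and after centring (0.0534). PIF3 (AT1G09530), a light-signalling factor, rose by 0.87 in expanding leaf (adjusted p = 0.00116). Of 8 measured genes known as direct DELLA targets outside the receptors, 3 were dim in every group, and 0 of the 8 changed in the first 3 stages. In seedlings, proliferating and expanding leaf 2, 1 and 2 had an unadjusted p under 0.05, where 1752, 2050 and 3896 of the 20777 loci did. In mature leaf GA3OX1 rose and AT5G50915 fell by 0.65 (adjusted p = 0.0379), the second call being lost without any mature control array or mature mannitol replicate 2 or 3 (adjusted p 0.0518 to 0.178).

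**Figure D4:**
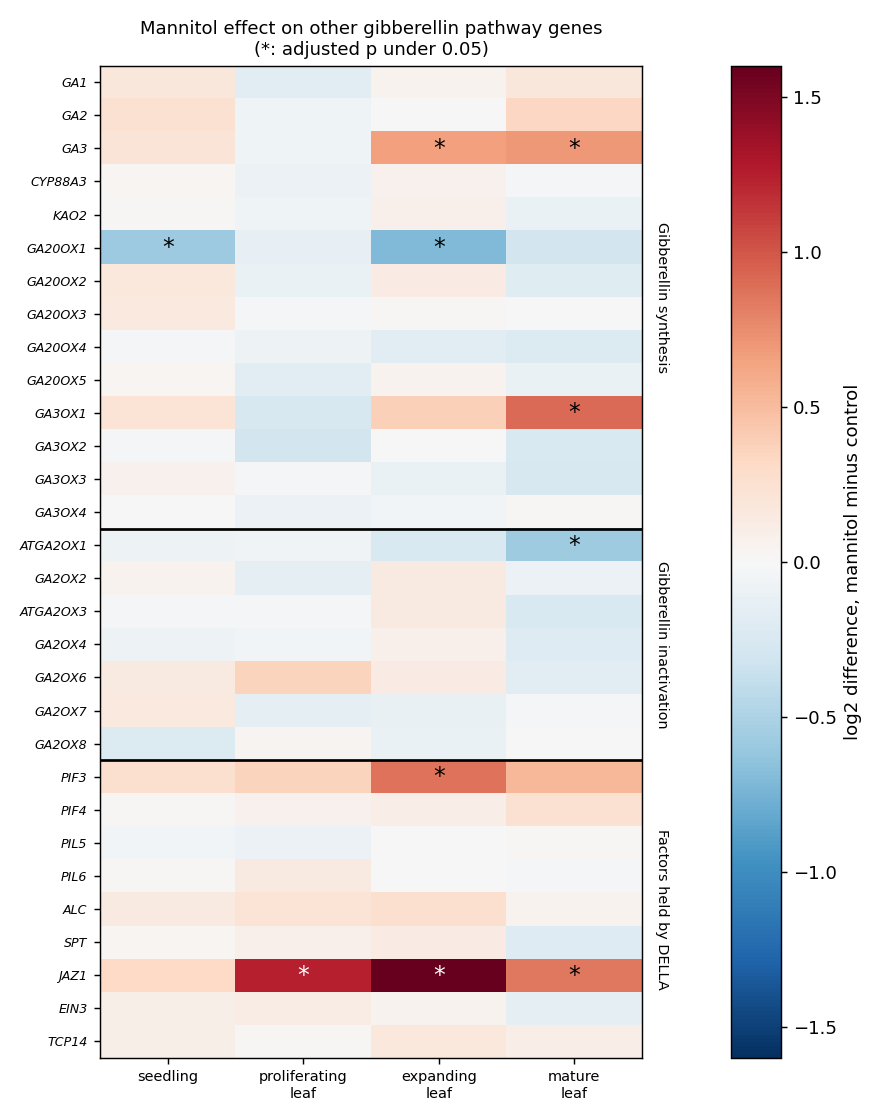
Log2 difference between mannitol and control (colour, red higher and blue lower under mannitol) of gibberellin synthesis genes, inactivation genes and DELLA-bound factors (rows, grouped) at the 4 stages (columns), with a star where the adjusted p was under 0.05. Stars stand on GA3, GA20OX1, GA3OX1, ATGA2OX1, PIF3 and JAZ1; the proliferating leaf column has a star on JAZ1 alone.

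Across the control leaf stages the pathway changed more widely, as did the table as a whole, with 60.6% of all loci called from proliferating to expanding and 40.4% from expanding to mature leaf. From proliferating to expanding leaf 9 of 14 synthesis genes changed (5 up, 4 down), with GA3 at -1.43, GA20OX1 at 1.52 and GA3OX1 at 1.49, and 4 of 7 inactivation genes (1 up, 3 down), with GA2OX6 at -1.79. Of the 13 partners and modifiers 12 changed, 9 of them down, a median of -0.50 where that of all loci was 0.04. Among these RBX1 (AT5G20570), the RING subunit of the ligase, was at -1.11 and SLY2, dim in expanding leaf, at -1.56 (adjusted p = 1.5e-11 and 3.39e-11). From expanding to mature leaf GA20OX1 (-0.90) and GA3OX1 (-1.07) fell and ATGA2OX1 rose by 1.94 (adjusted p = 5.12e-10), the only changes among the 14 synthesis and 7 inactivation genes.

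For each of the 9 transcripts the 2 loci with the most similar course over the 24 arrays were looked up among all 20777, by Pearson's r and as a description without a test, since the arrays of a group share their stage. For GID1B these were AT1G20100 (r = 0.98) and the splicing factor gene RSZ21 (AT1G23860, 0.97), and 701 loci exceeded 0.9. GID1A was followed most closely by IGMT5 (AT1G76790, 0.97) and SERPIN1 (AT1G47710, 0.96), and RGA by AT1G74530 (0.97) and RKP (AT2G22010, 0.96). GAI went with AT4G18970 (0.96) and AT3G60320 (0.95), RGL1 with SMT3 (AT1G76090, 0.95) and OVA4 (AT2G25840, 0.94), and SLY1 with AT5G58640 (0.94) and AT3G62810 (0.93). For RGL2 the closest were ATCAD4 (AT3G19450) and ADC1 (AT2G16500), at 0.91 each. GID1C, with VCL1 (AT2G38020) and EDL2 (AT5G39360) at 0.88, and RGL3, with AT3G17770 and DET1 (AT4G10180) at 0.83, had no locus above 0.9 (0 each). No DELLA or GID1 transcript was the closest match of another.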

How the data were processed

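Per the submitters' processing notes the deposited values were made by the authors with RMA, which corrects background, normalizes arrays and summarises probes; the RMA version and the probe grouping behind each locus are not given in these sources. That the deposited values are on a log2 scale was read from their range, 2.52 to 14.4. The table held 20777 loci on 24 arrays and was used as it stood. Symbols came from the RefSeq gene table of assembly TAIR10.1, which holds 20508 of the loci; no coordinates are printed. Groups were taken from the sample titles, which the stress field matches, since the treatment field names mannitol for control samples too. The members and lists were chosen with earlier results of these data known.

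The means of the 8 groups were modelled with limma 3.58.1 in R 4.3.3 over the 24 arrays (lmFit, eBayes; 6.02 prior degrees of freedom, prior SD 0.137). There were 12 contrasts, each two-sided and adjusted by Benjamini and Hochberg over all loci, with calls at an adjusted p under 0.05. Named pathway genes are up to 4 called genes with the smallest p per list and contrast, beside all 9 members. Genes named beyond that rule for context (GA2OX6 under mannitol, SPY, SLY2, marker genes) were chosen after their values were seen. On simulated data for the mannitol contrast of proliferating leaf (20777 loci), 59 of 100 true differences of 0.5 and 96 of 100 of 1 were recovered, with 6 false calls.

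Same-numbered mannitol and control arrays deviated together from their group means in seedlings, proliferating and expanding leaf (correlations 0.118 to 0.429), so the number was taken as pairing them there; in mature leaf 1 of 3 correlations was 0.0593, and between leaf stages the numbers did not pair. The main fit held no term for this pairing, so spread shared by paired arrays counts in its standard errors and intervals. The replicate block, used as an alternative, adds terms for the replicate number that are shared by all groups of its fit. In a fit over several stages it therefore does not pair each stage separately. With 3 arrays a group, array number sets the precision.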

Additional observations from a re-analysis of the deposited data

How the results depend on the processing

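Every comparison was repeated with the replicate block, with arrays centred on their median, with quantile normalization and with loci above the 40th percentile only. It was also repeated with a trended prior, with the compared groups alone, and without each array of the compared groups in turn. Arrays of the other groups were not left out. Of 1446 repeats of single member results, 1391 kept their side of the threshold, 35 lost the call, 20 gained it and 0 called values changed direction. Among uncalled differences 77 changed sign. Most member results were not called in the main fit, so most of the 1391 are uncalled results that stayed uncalled. Each member call under mannitol (RGL2 and SLY1 in expanding leaf, GAI in mature leaf) was lost in at least 1 alternative. The count of changed members under mannitol in expanding leaf (2) was 1 in the fit of the compared groups alone, 0 to 1 when single arrays were left out, and 3 (RGL1 added) with the replicate block and with loci above the 40th percentile only (RGL1 adjusted p = 0.0452 and 0.0432); that in mature leaf (1) was 0 after centring, 0 in the fit of the compared groups alone and 0 to 1 with arrays left out. For the mannitol effect in mature minus expanding leaf the count of 0 was 1 (RGL2) with the replicate block, 1 with loci above the 40th percentile only, and 0 to 1 with arrays left out; for mature minus proliferating leaf it was 0 to 1 with arrays left out. The count of 5 from expanding to mature mannitol leaf was 3 to 5 with arrays left out, the lowest without expanding mannitol replicate 2. Other counts of changed members stayed within 1.5 times. The cause of these changes was not tested, beyond the fewer arrays or loci that some settings use. With the replicate block RGL3 differed between control seedlings and expanding leaves (adjusted p = 0.0369), and the block changed no other call of a member than those given. RGL3 has no value with loci above the 40th percentile only. Of 162 pathway results, 40 lost the call in at least 1 alternative. Dim readings, chiefly of RGL3, GID1B and GID1C, limit the size of differences that can be seen.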

Other observations

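The DELLA genes belong to the GRAS family of plant regulators, and 25 other GRAS genes were followed beside them. SCL3 (AT1G50420), also of this family, is not among the 25 and was counted with the partners and the direct targets. From proliferating to expanding control leaf 7 of the 25 rose and 6 fell, where 60.6% of all loci changed. AT1G63100 (-4.12) and AT3G49950 (-2.70) fell most clearly, and PAT1 (AT5G48150, 2.33), a gene of phytochrome A signalling, and HAM3 (AT4G00150, 2.32) rose (limma adjusted p from 1.26e-16 to 3.67e-15). The first pair was dim in expanding leaf. The changes of these 4 genes are larger than those of any DELLA gene at that step. From expanding to mature control leaf 9 of 25 rose and 2 fell, where 40.4% of all loci changed, with SCL14 (AT1G07530, 0.92), SCL5 (AT1G50600, 1.15) and SCL1 (AT1G21450, 0.95) among the rises. Of the 25 genes 6 were dim in every group, and under mannitol 0 of 25 changed in seedlings, proliferating leaf or mature leaf. In these 0, 2 and 6 had an unadjusted p under 0.05, where 1752, 2050 and 4003 of the 20777 loci did. In expanding leaf 3 rose and 1 fell, where 7.65% of all loci changed. Their log2 differences were -0.48 for AT2G37650, 0.39 for AT1G07520, 0.51 for AT1G63100 and 0.56 for SCL13 (AT4G17230), with limma adjusted p from 0.0188 to 0.0486. Each of these 4 calls was lost without at least 1 expanding control and 1 expanding mannitol array, with adjusted p up to 0.209 among single arrays left out. That of SCL13 was also lost with the replicate block (0.0559), after centring (0.0525) and with quantile normalization (0.0602), that of AT1G07520 with quantile normalization (0.0774), and those of AT2G37650, AT1G07520 and AT1G63100 in the fit of expanding leaf alone (0.0769 to 0.163). The mannitol effect on AT3G46600 differed by -0.84 in mature minus expanding leaf (limma adjusted p = 0.0499). In mature minus proliferating leaf it differed by -0.88 (0.0453). These were 1 of 25 each time, where 3.41% and 2.64% of all loci passed. Both calls were lost without some single arrays (up to 0.137 and 0.139). The first was also lost with the replicate block (0.0540) and the compared groups alone (0.0989), the second with quantile normalization (0.0511).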
